A study of Homo sapiens with 27 samples.

Results

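Cytosolic RNA of A549R cells, read from the series text and its name as the cisplatin-resistant counterpart of the lung cancer line A549, was compared between cells given cisplatin and cells given the vehicle DMSO. The 6 libraries were chosen by their titles and labels out of 27 in the series: 3 from A549R cells treated with cisplatin at 100 µM and 3 from A549R cells given DMSO in parallel, numbered 1 to 3 in each group. For the comparison of cell lines, 3 cisplatin and 3 DMSO libraries of A549 cytosol were added. All groups share the same culture medium and the same cytosolic, poly(A)-selected RNA, and the labels describe each line as one of non-small cell lung cancer; how A549R became resistant, the time of exposure and whether the libraries came from separate cultures are not stated by the labels. P-values therefore measure the spread between these libraries, which may be technical. The series text sets out to ask how transcript ends inside genes change relative to the last exon after cisplatin and in resistance.

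Cisplatin is a platinum compound that binds DNA and forms crosslinks, which block replication and can stall RNA polymerase. The 3′ end of most messenger RNAs is made by cleavage of the nascent transcript and addition of a poly(A) tail, and many genes hold several such sites, either in tandem in the last exon or in introns far upstream of it. The assay, 3′-seq, is meant to prime from the poly(A) tail, so that each read is taken to mark a transcript end. Reads from neighbouring positions are gathered into peaks. A merged peak is called an end here, and whether each is a true transcript end was not checked. In cytosolic RNA a count reflects transcripts that left the nucleus and were not yet degraded, so that changes of synthesis, choice of end, export and decay cannot be told apart. Nor can fewer cells in a given state and less RNA per cell be told apart in such bulk samples.

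Every end is named by chromosome, start, end and strand, as the deposited lists give them, read as positions of the human build hg19. No annotation of that build was used here, so no end is tied to a gene, an exon or an intron, and the cell line was not checked against its marker genes.

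Total counts were 7222039, 6746974 and 6171900 in the cisplatin libraries and 7564772, 6999601 and 3024814 in the DMSO libraries. DMSO library 3 was the shallowest by more than a factor of 2 and listed 58734 peaks, whereas the other 5 listed 91128 to 110897. Merging peaks that overlapped on a strand gave 160552 ends, of which 44565 were listed in all 6 libraries and were tested. These held 89.8% to 95.9% of each library's counts. A further 12186 ends were missing from DMSO library 3 alone, against 513 to 1659 missing from any other single library.

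Cisplatin changed 1795 of the 44565 tested ends, with 1066 risen and 729 fallen at an adjusted p under 0.05 (edgeR quasi-likelihood test with the replicate number as a block, Benjamini-Hochberg over all tested ends). These are 4.03% of tested ends in either direction, 2.39% risen and 1.64% fallen. The median log2 fold change, cisplatin over DMSO, was 1.16 among risen ends and -1.31 among fallen ends, and it was -0.002 over all tested ends. A change over 2-fold was fitted at 716 of the risen and 595 of the fallen ends, and one over 4-fold at 70 risen and 53 fallen ends. All 3 cisplatin libraries lay outside the range of the 3 DMSO libraries at 862 of the 1066 risen and 636 of the 729 fallen ends. Over all 44565 tested ends this held at 7804 (17.5%). Calls were made from the same values, so this separation is no further support for them.

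The number of calls rested on the libraries of the pairs. Without the block, 419 ends were called (0.94%), 235 risen and 184 fallen, and 418 of them were also called with it. Because the block takes each difference within a replicate number, leaving out either library of a pair removes that pair from the fit. Without pair 1 the count was 134 (cisplatin 1 left out) or 157 (DMSO 1), without pair 2 it was 533 (cisplatin 2) or 927 (DMSO 2), and without pair 3 it was 5676 (cisplatin 3) or 5669 (DMSO 3). Pair 3, which holds the shallow DMSO library, had smaller falls: over the 729 fallen ends the median change within a pair was -1.42 in pair 1, -1.58 in pair 2 and -0.79 in pair 3 on the log2 scale, whereas over the risen ends it was 1.13, 1.20 and 1.06. The part of sequencing depth in this was not tested. Of the 1795 ends, 1786 were called in the same direction without cisplatin 3 and 1788 without DMSO 3. A set of 118 ends, 92 risen and 26 fallen, passed with and without the block, with both scalings, with DESeq2 and with each of the 6 libraries left out in turn.

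**Figure D1:**
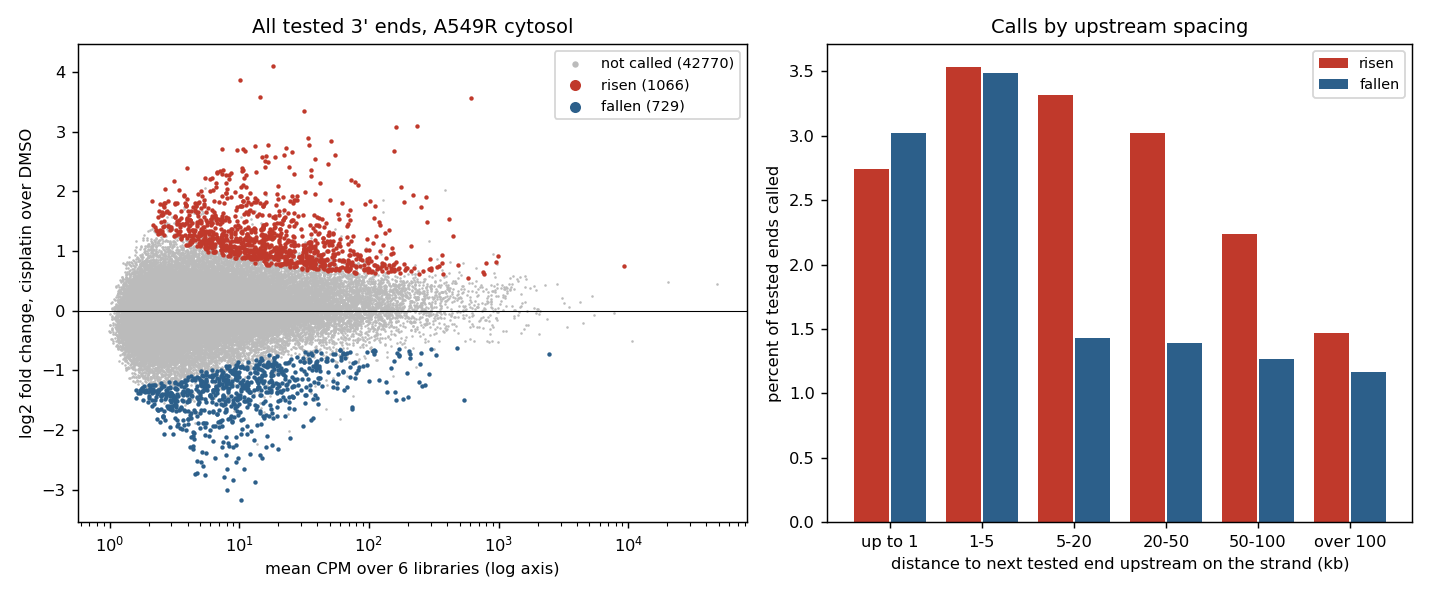
Left, the log2 fold change (cisplatin over DMSO) of each of the 44565 tested ends against its mean CPM over the 6 A549R libraries (log axis), with 1066 risen ends in red and 729 fallen ends in blue; right, the percent of tested ends risen or fallen by distance to the next tested end upstream on the strand. Falls were called at 3.02% and 3.49% of ends with an upstream neighbour within 5 kb and at 1.17% to 1.43% of ends spaced farther apart.

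The end with the largest rise lay at chr1:203278289-203278751 on the plus strand. It had 229, 307 and 75 reads in cisplatin libraries 1, 2 and 3, against 8, 19 and 7 in DMSO libraries 1, 2 and 3. Every cisplatin library was above every DMSO library, and the third was the lowest of the cisplatin libraries. In CPM, the counts scaled to a common library size, the level was 34.4 ± 20.7 with cisplatin and 2.10 ± 0.907 with DMSO (SD, n = 3 each), a log2 fold change of 4.10 (SE 0.33, edgeR adjusted p = 8.61e-05). No other tested end lay within 20 kb on its strand.

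The most abundant of the 12 largest rises was at chr6:36654336-36655197 on the plus strand. Reads there numbered 8144, 8429 and 3087 in the cisplatin libraries, against 534, 1623 and 98 in the DMSO libraries. Levels differed several-fold within each group, and in both groups library 3 was lowest and library 2 highest. The mean was 1101 ± 492 CPM with cisplatin and 121 ± 118 CPM with DMSO (SD, n = 3 each), a log2 fold change of 3.56 (SE 0.31, edgeR adjusted p = 0.000654). Within pairs the change ran from 2.57 in pair 2 to 4.19 in pair 3 on the log2 scale. The call was lost without the replicate block (edgeR adjusted p = 0.164).

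A pair of neighbours in the order of fold change was steadier between libraries. The end at chr17:72858609-72859056 on the minus strand had 2994, 2337 and 2194 reads in the cisplatin libraries, against 283, 422 and 144 in the DMSO libraries (423 ± 32.8 and 50.7 ± 13.5 CPM, log2 fold change 3.09, SE 0.19, edgeR adjusted p = 3.29e-05). The end at chr19:18499235-18500072 on the plus strand had 2181, 1626 and 1349 reads with cisplatin, against 221, 333 and 73 with DMSO (289 ± 46.0 and 35.7 ± 15.1 CPM, log2 fold change 3.07, SE 0.21, edgeR adjusted p = 3.29e-05). Both groups were far apart at these ends, and both ends passed in every one of the 10 settings that kept the same ends.

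The second largest rise rested on part of the libraries. At chr6:76028647-76028972 on the minus strand, cisplatin libraries 1 and 3 had 177 and 164 reads, whereas cisplatin library 2 had 7, against 6, 6 and 5 reads in the DMSO libraries. On the CPM scale, cisplatin library 2 (1.25 CPM) lay below the highest DMSO library (1.55 CPM), so the groups overlapped. The log2 fold change was 3.86 (SE 0.57, edgeR adjusted p = 0.00683), and the call was lost without the block (edgeR adjusted p = 0.152), without cisplatin 1 (edgeR adjusted p = 0.0969) and without DMSO 1 (edgeR adjusted p = 0.0959). It was also lost with DESeq2 (adjusted p = 0.0700) and over all merged ends with unlisted ends taken as 0 (edgeR adjusted p = 0.523). Over merged ends with a mean count of at least 5 and unlisted ends as 0, the edgeR adjusted p was 0.345. That setting called no end at all, so its outcome is not particular to this end.

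The other 7 of the 12 largest rises had log2 fold changes of 2.75 to 3.58 and did not overlap between groups. The end at chr9:140120526-140120771 on the plus strand, the third in order, had 203, 155 and 115 reads with cisplatin and 8, 18 and 10 with DMSO. The fifth was at chr14:105946199-105946504 on the plus strand, with 442, 383 and 201 reads with cisplatin and 35, 48 and 14 with DMSO. At chr11:64883433-64883710 on the plus strand, 552, 355 and 166 reads stood with cisplatin and 63, 94 and 5 with DMSO. All of these had the most reads in cisplatin library 1, and the last was the only one of the 7 to lose its call without the block (edgeR adjusted p = 0.075).

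The end at chr1:949584-949924 on the plus strand had 685, 666 and 250 reads with cisplatin and 86, 126 and 19 with DMSO. At chrX:48770448-48770712 on the minus strand there were 231, 236 and 53 with cisplatin and 40, 28 and 7 with DMSO. Cisplatin and DMSO libraries numbered 3 were the lowest of their groups at both. The last 3 rises, at chr2:85569130-85569823, chr14:50458158-50458663 and the X-linked end just given, were all on the minus strand and had log2 fold changes of 2.75 to 2.78. Of the 12, 9 passed in all 10 settings that kept the same ends.

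**Figure D2:**
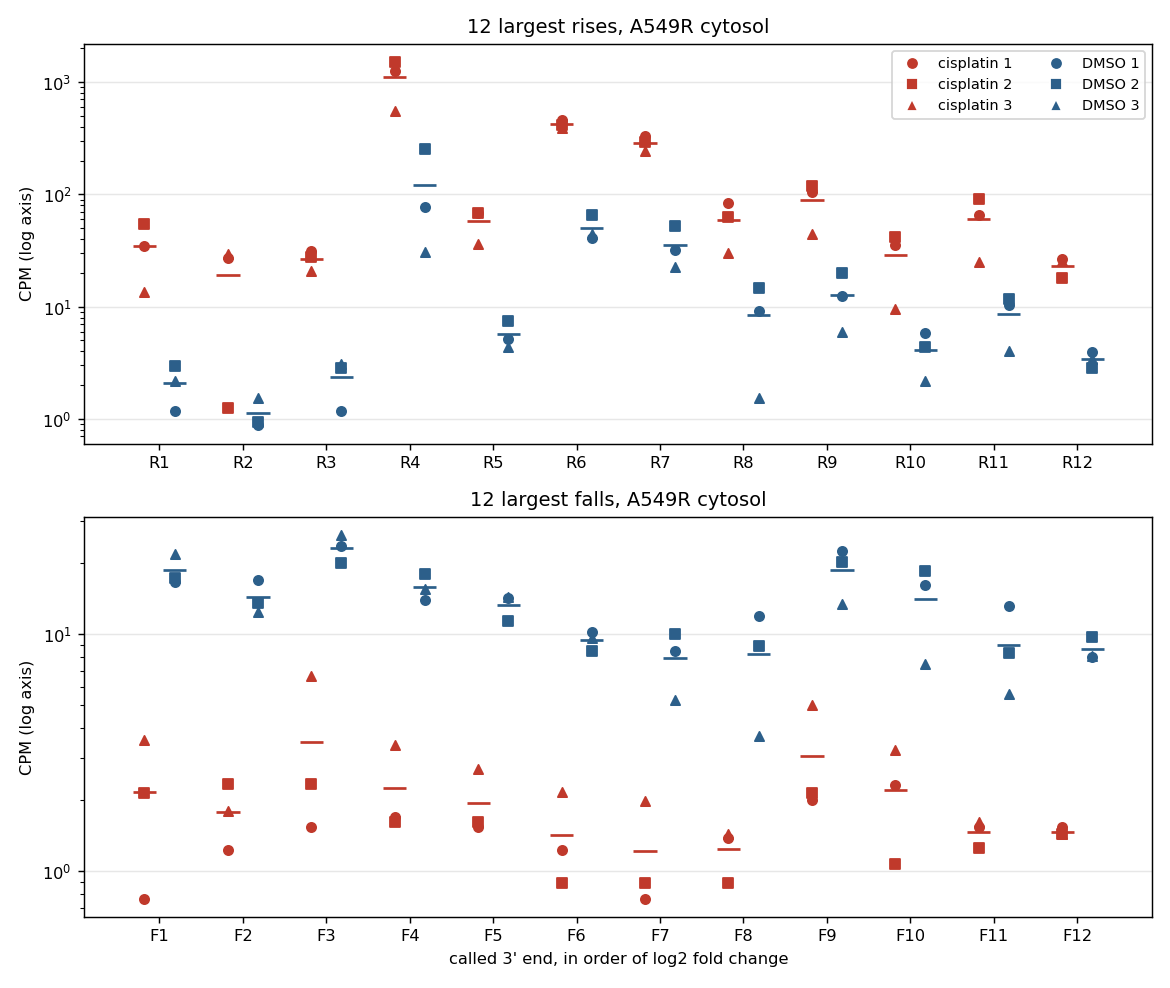
CPM on a log axis in each of the 3 cisplatin (red) and 3 DMSO (blue) A549R libraries, marker shape giving the replicate number and a bar the group mean, for the 12 largest rises (R1 to R12) and the 12 largest falls (F1 to F12) in order of log2 fold change. R1 is the end at chromosome 1 with 34.4 ± 20.7 CPM with cisplatin and 2.10 ± 0.907 CPM with DMSO, R2 the end with 1 low cisplatin library, and F1 the end at chromosome 17 with 2.16 ± 1.41 CPM with cisplatin and 18.5 ± 2.78 CPM with DMSO.

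The 12 largest falls had a median of the mean CPM of 7.80, against 32.7 for the 12 largest rises and 4.74 over all tested ends. The largest was at chr17:9153784-9153963 on the minus strand, with 5, 12 and 20 reads in cisplatin libraries 1, 2 and 3, against 114, 110 and 70 in the DMSO libraries. The groups did not overlap, and the fall was steepest in pair 1. The level was 2.16 ± 1.41 CPM with cisplatin and 18.5 ± 2.78 CPM with DMSO (SD, n = 3 each), a log2 fold change of -3.18 (SE 0.31, edgeR adjusted p = 0.000259).

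At chr7:133750318-133750518 on the plus strand, reads numbered 8, 13 and 10 with cisplatin and 116, 86 and 40 with DMSO (log2 fold change -3.01, SE 0.30, edgeR adjusted p = 0.000262). At chr1:50906600-50907198 on the minus strand they numbered 10, 13 and 37 with cisplatin and 161, 127 and 84 with DMSO. The cisplatin library numbered 3 was the highest of its group at the second of these and between the others at the first. At chr3:17201838-17202088 on the minus strand there were 11, 9 and 19 reads with cisplatin and 95, 114 and 50 with DMSO, and at chr11:47183597-47183800 on the plus strand 10, 9 and 15 with cisplatin and 97, 72 and 46 with DMSO. None of these 5 falls overlapped between groups.

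The other 7 of the 12 largest falls had log2 fold changes of -2.75 to -2.53, and their cisplatin means ran from 1.21 to 3.05 CPM. The lowest count that the lists hold was 5 in every library, and an end unlisted in any library was not tested. All 12 falls were called without the block, and 8 of them passed in all 10 settings that kept the same ends. The median change within pairs was -3.16 in pair 1, -3.16 in pair 2 and -2.07 in pair 3 on the log2 scale.

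Among abundant ends the changes were smaller. The 5 risen ends with the highest mean CPM had log2 fold changes of 0.61 to 0.92. Of these, the end at chr17:19641242-19641557 on the minus strand had 8461, 7763 and 6510 reads with cisplatin, against 4751, 5521 and 1664 with DMSO. Its groups did not overlap (1282 ± 110 and 691 ± 175 CPM, log2 fold change 0.92, SE 0.15, edgeR adjusted p = 0.0055), and 2 other tested ends within 20 kb on its strand also rose. The ends at chr14:65405865-65406564 and chrX:118920419-118920697, both on the minus strand, had log2 fold changes of 0.79 and 0.61. All 5 lost their call without the block, at edgeR adjusted p-values of 0.0685 to 0.302.

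The fallen end with the highest mean CPM was at chr17:79476851-79477860 on the minus strand, with 10600, 8615 and 12829 reads with cisplatin and 15510, 16460 and 14337 with DMSO. Levels were 1819.7 ± 417 CPM with cisplatin and 3095 ± 1180 CPM with DMSO, and the groups overlapped (log2 fold change -0.73, SE 0.15, edgeR adjusted p = 0.0172). At chr5:175309838-175311029 on the plus strand the reads were 1424, 1012 and 2945 with cisplatin and 5192, 4600 and 2719 with DMSO. The third cisplatin library was the highest of its group there, and the change within pairs was -1.80, -2.00 and -0.68 on the log2 scale. The log2 fold change was -1.49 (SE 0.23, edgeR adjusted p = 0.00561), and 2 of 3 other tested ends within 20 kb on the strand fell as well. The other 3 abundant falls had log2 fold changes of -0.74 to -0.63, and all 5 lost their call without the block.

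The mitochondrial genome, whose transcripts are polyadenylated inside the organelle, gave 6.47%, 9.87% and 7.50% of all counts in the cisplatin libraries, against 5.43%, 5.86% and 7.19% in the DMSO libraries. The share was higher with cisplatin in 3 of 3 pairs, but cisplatin library 1 lay below DMSO library 3. The means of 7.94% ± 1.74 with cisplatin and 6.16% ± 0.92 with DMSO (SD, n = 3 each) gave p = 0.2 by an exact two-sided permutation test and p = 0.25 by an exact sign-flip test over pairs. With 3 libraries a group these tests cannot go below 0.1 and 0.25, so neither could reach 0.05. Leaving out cisplatin library 2 brought the difference of 1.78 percentage points to 0.822.

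Of 4 tested mitochondrial ends, 1 was called. The stretch chrM:1671-16571 on the minus strand, 1 merged end, had 49736, 105628 and 52250 reads with cisplatin and 38938, 47367 and 21748 with DMSO. It spans 14901 bases and so does not mark the position of a single transcript end. Its second cisplatin library stood well above the rest (18862 CPM, against 7610 and 9363 CPM in the others). The log2 fold change was 0.75 (SE 0.18, edgeR adjusted p = 0.0389), and without cisplatin 2 it was 0.45 (edgeR adjusted p = 0.369). The end at chr1:564464-570304 on the minus strand was likewise highest in cisplatin library 2, with 645, 2107 and 1023 CPM with cisplatin and 463, 724 and 755 CPM with DMSO, and it too lost its call without cisplatin 2 (edgeR adjusted p = 0.377). A pair of other abundant mitochondrial ends, chrM:1-16571 on the plus strand and chrM:1-730 on the minus strand, did not pass the threshold, with log2 fold changes of 0.44 (SE 0.15, edgeR adjusted p = 0.14) and 0.48 (SE 0.16, edgeR adjusted p = 0.127).

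Among the 5 most abundant tested ends, the largest nuclear one was at chr12:52679669-52680281 on the minus strand. It had 8880 ± 1396 CPM with cisplatin and 12578 ± 795 CPM with DMSO (SD, n = 3 each), and its log2 fold change of -0.51 (SE 0.15) missed the threshold (edgeR adjusted p = 0.073). It passed without cisplatin 3 (edgeR adjusted p = 0.0447) and without DMSO 3 (edgeR adjusted p = 0.0398), and 2 tested ends within 20 kb on its strand fell. The end at chr19:49469530-49470268 on the plus strand was at 7778 ± 2302 CPM with cisplatin and 7809 ± 941 CPM with DMSO, a log2 fold change of -0.04 (SE 0.16).

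Called ends were wider and more abundant than the rest. The median merged width was 329 bases among risen ends, 242 among fallen ends and 95 over all tested ends, and the median of the mean CPM was 15.3 among risen ends, 9.21 among fallen ends and 4.74 over all tested ends. Below 2 CPM, 0 of 6288 ends were called up and 16 down, whereas above 50 CPM 6.17% of 2999 ends rose and 2.33% fell. Counting error is larger at low levels, and its part in these shares was not tested. Among the nuclear chromosomes, rises were most frequent on chromosomes 19 (4.36% of 1787 tested ends), 11 (4.25% of 2142), 17 (4.21% of 2164) and 20 (4.17% of 1176). They were least frequent on chromosome 13 (0.686% of 1020), and the share of falls on nuclear chromosomes ran from 0.362% on chromosome 18 to 2.41% on chromosome 10. Median levels were 6.37, 5.36, 5.58 and 5.33 CPM on chromosomes 19, 11, 17 and 20, and 3.86 CPM on chromosome 13. Chromosome 22 stood at 5.44 CPM with 3.41% risen. The part of level in the chromosome shares was not tested. The mitochondrial genome held 4 tested ends, of which 1 rose and 0 fell.

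Over all tested ends, falls and rises were both more frequent where ends stood within 5 kb of a neighbour than where they stood beyond 100 kb. With the next tested end upstream within 1 kb, 3.02% of 3540 ends fell, and with it at 1 to 5 kb 3.49% of 4469 fell. With the upstream neighbour at 5 to 20 kb, 20 to 50 kb, 50 to 100 kb or beyond, the shares were 1.43%, 1.39%, 1.27% and 1.17%. Among ends over 10 CPM the falls were at 3.89% and 4.49% in the 2 closest bins and at 2.10% to 2.24% in the others. Over all tested ends, rises were at 2.74%, 3.54%, 3.32%, 3.02%, 2.23% and 1.47% in the same order of distance. Among ends over 10 CPM, rises were at 4.03%, 6.67%, 7.19%, 7.16%, 5.00% and 4.06%. There the closest bin was not above the farthest. By distance to the next tested end downstream, the shares of falls were 2.68%, 2.48%, 1.73%, 1.53%, 1.37% and 1.31% and those of rises 3.62%, 3.33%, 3.18%, 2.54%, 2.36% and 1.55%, so that both were more frequent at close ends. Where an end on the other strand was tested within 2 kb, 4.45% of 3190 ends rose and 2.57% fell, against 2.23% and 1.56% of the 41375 without one; the median level was 7.73 CPM with such an end and 4.58 CPM without. These shares are descriptions, with no test.

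Called ends within 20 kb of each other on a strand were joined, which gave 1527 loci. Of these, 201 held 2 or more, with 469 called ends in all. In 104 of the 201 every called end had risen, in 89 every called end had fallen, and 8 held both directions. Close spacing was also common among all 44565 tested ends. Upstream neighbours lay within 1 kb at 3540, at 1 to 5 kb at 4469 and at 5 to 20 kb at 5940. Whether called ends lie closer together than that was not tested. Loci are described by their own values, since ends of a locus can come from the same transcripts, and those given next were picked after their values were seen. Each locus is bounded by its outermost called ends, and only tested ends within those bounds are counted. The share of tested ends called in a locus therefore partly follows from its bounds. The locus with the most called ends was at chromosome 8, 62531380 to 62566273 on the minus strand. There 9 of 12 tested ends fell, with log2 fold changes of -2.26 to -1.45, and all 9 were also called without the block.

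At chromosome 6, 32796145 to 32815878 on the minus strand, 5 of 5 tested ends rose. The end at chr6:32812980-32813540 had 479, 442 and 152 reads with cisplatin and 64, 84 and 36 with DMSO (59.8 ± 28.4 and 11.2 ± 1.92 CPM, log2 fold change 2.36, SE 0.28, edgeR adjusted p = 0.00094). The next end downstream, chr6:32808491-32808681, had 111, 69 and 141 reads with cisplatin and 26, 22 and 12 with DMSO (log2 fold change 2.22, SE 0.25, edgeR adjusted p = 0.000641). Groups were apart at both, and 2 of the 5 ends, these same ones, were called without the block (edgeR adjusted p = 0.0127 and 0.00772).

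At chromosome 10, 33189237 to 33218980 on the minus strand, 6 of 10 tested ends fell, and all 10 had a log2 fold change between -1.43 and -0.72. The most upstream, chr10:33218739-33218980, was the most abundant, with 1060, 999 and 1251 reads with cisplatin and 3007, 2665 and 1013 with DMSO. Its level was 188 ± 32.1 CPM with cisplatin and 390 ± 66.5 CPM with DMSO (log2 fold change -1.05, SE 0.19, edgeR adjusted p = 0.0093). The last end downstream, chr10:33189237-33190278, was at 48.7 ± 6.59 CPM with cisplatin and 81.5 ± 22.9 CPM with DMSO (log2 fold change -0.72, SE 0.18, edgeR adjusted p = 0.0489). The first and last ends of the stretch are called ends by the way it was bounded. Without the block, 2 of the 6 calls held.

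At chromosome 1, 164816117 to 164821068 on the plus strand, 5 of 5 tested ends fell, with log2 fold changes of -2.28 to -1.37. The end at chr1:164820262-164820622 had 7, 8 and 10 reads with cisplatin and 67, 38 and 16 with DMSO (edgeR adjusted p = 0.00361), and 3 of the 5 held without the block.

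Chromosome 11, 27360045 to 27390459 on the minus strand, held ends that moved in both directions. The 3 most upstream of 8 tested ends fell. At chr11:27387503-27388041 there were 96, 62 and 85 reads with cisplatin and 343, 241 and 83 with DMSO (13.7 ± 2.26 and 37.8 ± 12.1 CPM, log2 fold change -1.45, SE 0.23, edgeR adjusted p = 0.00427). Farther downstream, 3 ends rose. The most abundant of them, chr11:27362937-27363105, had 1135, 662 and 824 reads with cisplatin and 626, 536 and 112 with DMSO (147 ± 27.7 and 70.0 ± 30.7 CPM, log2 fold change 1.14, SE 0.26, edgeR adjusted p = 0.0346). The 3 risen ends lost their call without the block, and 2 of the 3 fallen ends kept it.

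At chromosome 7 on the plus strand an end and its downstream neighbour moved apart. The upstream end, chr7:76068267-76068492, had 41, 43 and 42 reads with cisplatin and 210, 211 and 38 with DMSO (log2 fold change -1.75, SE 0.29, edgeR adjusted p = 0.00545). The downstream end, chr7:76071154-76071392, had 283, 257 and 201 reads with cisplatin and 157, 167 and 35 with DMSO (log2 fold change 1.10, SE 0.21, edgeR adjusted p = 0.0122). The upstream end was the more abundant of these in DMSO libraries 1, 2 and 3, and the downstream end was the more abundant in every cisplatin library. Without the block the upstream fall kept its call (edgeR adjusted p = 0.0325) and the downstream rise lost it (edgeR adjusted p = 0.131).

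**Figure D3:**
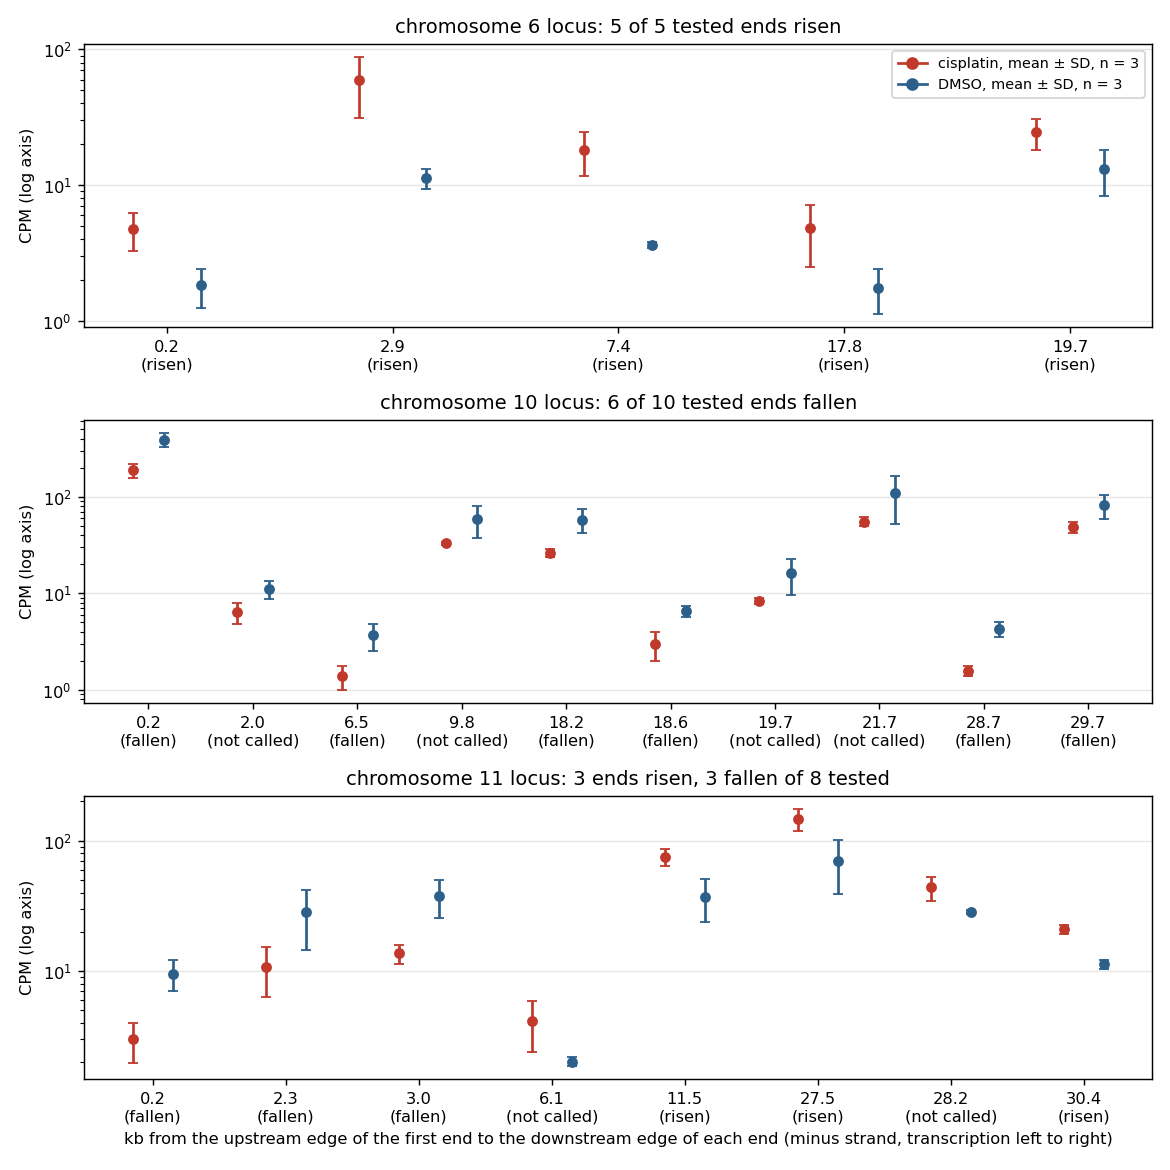
Mean CPM ± SD (log axis, n = 3 libraries each) with cisplatin (red) and DMSO (blue) at the tested ends of 3 loci of the minus strand, placed from upstream to downstream with the distance in kb and the call under each end. All 5 ends rose at the chromosome 6 locus, 6 of 10 fell at the chromosome 10 locus, and at the chromosome 11 locus the 3 upstream ends fell and 3 downstream ends rose. Each locus is bounded by its outermost called ends.

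The question of shorter against longer transcripts was put without an annotation, by setting each end against the strongest tested end within 50 kb downstream on its strand where that end was stronger. The 13530 such pairs need not lie in 1 gene. Relative to the stronger downstream end, the weaker upstream end rose in 53 pairs and fell in 118, which is 1.26% of pairs (edgeR quasi-likelihood test with a term for each library, adjusted p under 0.05 over all pairs). Some pairs share a downstream end, so they are not all independent. The 53 rises held 51 different downstream ends and the 118 falls held 98. With the replicate number also kept as a block for the ends, an alternative added after seeing the data, 185 rose and 311 fell. Falls outnumbered rises at every distance beyond 1 kb, with 78 falls and 36 rises among 5809 pairs spaced 20 to 50 kb apart.

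The direction of the ratio did not say which end moved. Among the 118 falling pairs, the stronger end was itself called up in 57 and the weaker end called down in 49. Among the 53 rising pairs, the weaker end was called up in 34 and the stronger end called down in 18. Turned round, with the weaker end downstream of the stronger one, 71 of 11939 pairs rose and 79 fell. The median log2 change of the ratio was -0.06 with the stronger end downstream and -0.06 with it upstream, the same size in both arrangements.

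Per library, the median over pairs of the log2 ratio of weaker upstream to stronger downstream end was -2.00, -2.09 and -2.06 in the cisplatin libraries and -1.98, -1.98 and -1.89 in the DMSO libraries. The groups did not overlap, by a margin smaller than the range within either group. The means were -2.05 ± 0.05 with cisplatin and -1.95 ± 0.05 with DMSO (SD, n = 3 each). The exact two-sided permutation p was 0.1 and the exact sign-flip p over same-numbered libraries 0.25, the smallest each allows. With the stronger end upstream, the means of the same measure were -1.80 ± 0.03 with cisplatin and -1.72 ± 0.08 with DMSO. The exact two-sided permutation p was 0.2 and the exact sign-flip p 0.5. There the groups overlapped, with cisplatin library 2 at -1.766 and DMSO library 2 at -1.771. The measure was higher with cisplatin in 1 of 3 same-numbered pairs, against 0 of 3 with the stronger end downstream. Whether the shift differs between the arrangements was not tested.

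The largest relative rise was at chr9:140120526-140120771 on the plus strand, given above among the rises, set against chr9:140136936-140138363 downstream. The upstream end held 7.33%, 4.53% and 4.81% of the reads of both in the cisplatin libraries, against 0.366%, 0.740% and 0.866% in the DMSO libraries. Shares were apart in every library, and the stronger end itself did not pass (log2 fold change 0.38, SE 0.15, edgeR adjusted p = 0.209). The log2 change of the ratio was 3.17 (SE 0.38, edgeR adjusted p = 0.00039).

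A like pattern, with a risen upstream end and a downstream end that did not pass, was seen at 3 more of the 6 largest relative rises. Of these 3 downstream ends, the one on chromosome 14 was nearest the threshold (log2 fold change 0.55, SE 0.14, edgeR adjusted p = 0.0524). At chr1:36787627-36787803 on the minus strand the upstream share was 9.73%, 11.1% and 8.68% with cisplatin and 1.69%, 1.63% and 1.13% with DMSO, against an end 26093 bases away. At chr14:105946199-105946504 it was 9.66%, 9.07% and 7.92% with cisplatin and 1.15%, 1.63% and 1.47% with DMSO. At chr20:34411215-34411404 on the plus strand it was 61.3%, 50.0% and 74.3% with cisplatin and 23.5%, 17.6% and 21.7% with DMSO, with the stronger end just downstream. In that last pair the end that was stronger over all 6 libraries was the weaker one in cisplatin libraries 1 and 3.

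The other 2 relative rises came with a fall of the downstream end. At chr7:133706454-133706522 on the plus strand the upstream end did not pass (log2 fold change -0.01, SE 0.26, edgeR adjusted p = 0.993), whereas the end downstream, the second largest fall of all, did. The upstream share was 82.2%, 73.5% and 74.4% with cisplatin and 30.1%, 29.5% and 25.9% with DMSO. At chr11:65180726-65180997 on the plus strand the upstream end rose (log2 fold change 1.51, SE 0.34, edgeR adjusted p = 0.0288) and the end at chr11:65193313-65194006 fell (log2 fold change -1.54, SE 0.33, edgeR adjusted p = 0.0262). Both calls were lost without the block (edgeR adjusted p = 0.0955 and 0.0648). Shares there were 68.9%, 75.4% and 33.6% with cisplatin and 10.1%, 15.8% and 26.8% with DMSO, so that pair 3 changed least.

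Among the 6 largest relative falls, 5 came with a risen downstream end and an upstream end that did not pass. In 3 of them the downstream end was the same, chr1:949584-949924, so they are not independent. Another was set against the abundant end at chr6:36654336-36655197, with an upstream end at chr6:36641565-36641742 that held 0.537%, 0.496% and 1.06% of reads with cisplatin and 7.29%, 2.17% and 14.0% with DMSO. In the remaining one of these 5, at chr17:35838133-35838372 on the plus strand, the upstream share was 6.06%, 1.74% and 7.02% with cisplatin and 30.0%, 28.6% and 44.7% with DMSO. The only one of the 6 in which the upstream end itself fell was at chr11:47183597-47183800, with shares of 2.79%, 2.29% and 3.58% with cisplatin and 24.9%, 21.7% and 19.7% with DMSO against an end 3289 bases downstream (log2 change of the ratio -3.24, SE 0.33, edgeR adjusted p = 0.000203).

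**Figure D4:**
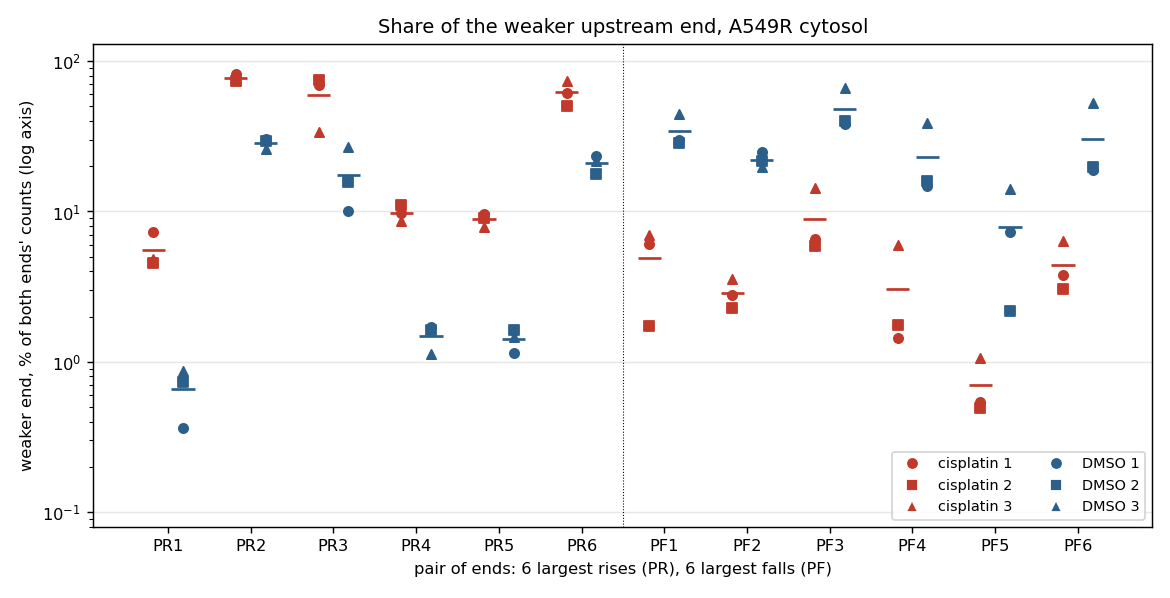
Reads of the weaker upstream end as a percent of the reads of both ends (log axis) in each of the 3 cisplatin (red) and 3 DMSO (blue) A549R libraries, marker shape giving the replicate number and a bar the group mean, for the 6 largest relative rises (PR1 to PR6) and the 6 largest relative falls (PF1 to PF6). In each of the 12 pairs the cisplatin and DMSO libraries are apart.

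To ask whether A549R cells responded otherwise than A549 cells, the 16902 ends listed in all 12 cytosol libraries were fitted together. The 6 A549 lists hold 31.6% to 35.2% of their peak numbers, against 76.0% to 77.5% in A549R, so the comparison covers ends that the shorter lists kept. In this fit 2588 ends were called in A549R (15.3%) and 3008 in A549 (17.8%). Both lines called 1671 ends, all in the same direction, which is 64.6% of the A549R calls and 55.6% of the A549 calls. Of the 917 ends called in A549R and not in A549, 872 had the same sign in A549. The difference of the response, A549R minus A549, was called at 0 ends (0%), with 693 ends (4.10%) at an unadjusted p under 0.05 and a smallest adjusted p of 1.00 (edgeR); DESeq2 called 1. The 95% interval of a difference, before any adjustment, reached 0.775 on the log2 scale to either side in the median end. A call needed more, since it was adjusted over all 16902 ends. On simulated counts this test recovered 21% of 2-fold and 86% of 4-fold differences. The missing calls therefore do not show that the lines respond alike.

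**Figure D5:**
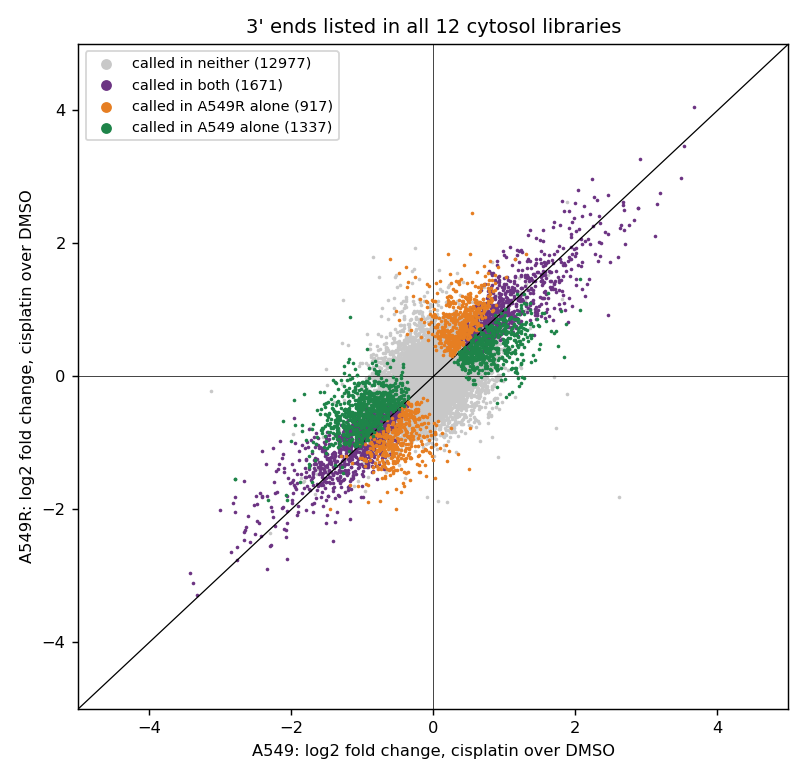
The log2 fold change (cisplatin over DMSO) in A549R against that in A549 at the 16902 ends listed in all 12 cytosol libraries, 3 libraries per group, with the diagonal of equal response; colours mark ends called in both lines (1671), in A549R alone (917), in A549 alone (1337) or in neither. Ends called in both lie along the diagonal in the same direction.

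Of the 12 largest rises in A549R, 10 were listed in all 12 libraries, and all 10 rose in A549, with log2 fold changes of 2.03 to 3.66. The end at chr6:36654336-36655197 had a log2 fold change of 3.47 in A549R and 3.53 in A549 in this fit, a difference of -0.06 (SE 0.44). At chr19:18499235-18500072 the rise was 2.97 in A549R and 2.23 in A549, a difference of 0.74 (SE 0.22) with an unadjusted edgeR p of 0.00500, the smallest among the 10. All 6 of the falls that could be compared fell in A549, by log2 fold changes of -3.43 to -2.06, and none of them differed between lines at an unadjusted p under 0.05. The 12 ends were chosen for their change in A549R, so the A549 values are the ones that choice did not use.

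By unadjusted p the difference between lines was largest at 5 ends, none of which passed the adjustment (edgeR adjusted p of 1.00 each). At chr22:35789479-35790212 on the plus strand the level was 84.0 ± 18.7 CPM with cisplatin and 89.2 ± 45.1 CPM with DMSO in A549R, and 85.3 ± 9.58 CPM with cisplatin and 197 ± 40.5 CPM with DMSO in A549. The log2 fold change was 0.01 in A549R and -1.19 in A549, a difference of 1.21 (SE 0.22, 95% interval 0.73 to 1.68). At chr16:81743690-81744504 and chr20:30193871-30194354, both on the plus strand, falls were also smaller in A549R, by differences of 1.33 (SE 0.26) and 0.82 (SE 0.17). At chr17:48167491-48167857 on the plus strand, A549R fell to 66.8 ± 16.6 CPM with cisplatin, against 146 ± 20.6 CPM with DMSO, whereas A549 was at 154 ± 43.8 CPM with cisplatin and 176 ± 104 CPM with DMSO. At chr14:21558204-21558747 on the minus strand A549R was at 58.6 ± 13.8 CPM with cisplatin and 21.7 ± 5.03 CPM with DMSO, and A549 at 76.6 ± 22.6 CPM with cisplatin and 65.2 ± 32.7 CPM with DMSO.

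Ends listed in one treatment alone could not be tested, because an unlisted end is not a count of 0. All 3 cisplatin libraries and no DMSO library listed 1085 ends, and all 3 DMSO libraries and no cisplatin library listed 521. In most of them the lowest count was near the smallest that the lists hold, with a median of 5 in each set, but 19 of the 1085 and 3 of the 521 had at least 20 reads in every library that listed them. The end at chr6:89711416-89711567 on the plus strand had 401, 373 and 330 reads in the cisplatin libraries and was unlisted in the DMSO libraries. In the other direction, chr10:98325050-98325188 on the minus strand had 84, 69 and 63 reads in the DMSO libraries and was unlisted in the cisplatin libraries. Peaks are numbered in each list with gaps, and a number was skipped where the unlisted end should lie for 40.6% to 46.8% of all these ends, against 21.3% to 22.7% of all stretches between listed peaks. Of the 19 well-covered ends of the cisplatin libraries, 15 or 16 fell on a skipped number in each DMSO library, and all 3 of the DMSO libraries did so in each cisplatin library. An unlisted end was therefore not read as absent, and no fold change is given.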

How the data were processed

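The deposited files are peak lists of 3′-seq, 1 per library. By the labels' protocols, RNA with a poly(A) tail was broken into fragments, copied by an oligo-dT primed reverse transcriptase, amplified over 16 PCR cycles and sequenced from one side for 50 bases. Bowtie2 (version 2.2.5), SAMtools (1.1) and bedtools (2.17.0) are named in the submitters' processing notes. The authors deposited read counts per peak as whole numbers, not normalized, and no list held a count under 5 (peak caller and filter: not given in the sources used here). Those notes name the build mm9, whereas the lists hold a chromosome 22 and a mitochondrial genome of 16571 bases; positions were read as hg19. Molecules were not tagged before PCR, so p-values do not separate molecules from copies.

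Peaks overlapping by at least 1 base on a strand were merged over the 6 A549R libraries, a library's counts were summed within each, and those listed in all 6 were tested with edgeR 4.0.16 (TMM, robust quasi-likelihood) with replicate number as a block. Same-numbered libraries correlated at 0.24, 0.0973 and 0.311 in their deviations from group means. The labels state no pairing; the rule that chose these libraries did, and 1 of 3 correlations is just under the 0.1 asked for, so unblocked counts are printed beside the blocked ones. CPM were computed by edgeR from the TMM-scaled count in tested peaks. Pairs of ends were fitted with a term for each library, and the 12 cytosol libraries with line by replicate number as a block. Tested on simulated counts for the 44565 peaks, the blocked test recovered 38% of 2-fold and 94% of 4-fold changes, with 2 of 134 calls not planted; the pair test recovered 0% and 31% on 13530 pairs, and the difference between lines 21% and 86% on 16902 peaks, with 11 of 118 calls not planted.

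Named ends are the 12 largest rises and 12 largest falls among called ends whose 3 pairs moved the same way, the 5 most abundant called ends in each direction, the 6 largest changes of pairs in each direction, the 5 smallest p of the difference between lines and the 5 most abundant ends. Members, lists and rules were chosen with earlier results of these data known. Lists of genes, marker genes and the sum over a gene's ends, which need an annotation of the build, were not analysed here. R 4.3.3, DESeq2 1.42.0 (alternative) and Python 3.11.15 were used.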

Additional observations from a re-analysis of the deposited data

How the results depend on the processing

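The count of 1795 changed ends rests on the block and on single pairs. It was 419 without the replicate block, 987 with DESeq2, 952 of the 16329 ends with at least 20 reads in each library and 1162 of all 160552 merged ends with unlisted ends taken as 0. It was 0 of 73439 merged ends with a mean count of at least 5 and unlisted ends as 0 (edgeR; 6569 at an unadjusted p under 0.05), and the cause was not tested; the listing is no count of 0. With 1 library left out the count ran from 134 (without cisplatin 1) to 5676 (without cisplatin 3). Scaling by relative log expression, merging over gaps of up to 50 bases and merging over 12 libraries gave 1905 to 2036 on 44173 to 44565 ends, and fitting 12 libraries gave 2588 of 16902. Pairs of ends numbered 171, against 79 without the replicate block, 185 risen and 311 fallen with end by replicate number as a replicate block (chosen after seeing the data), 59 with neighbours within 20 kb and 35 to 270 with 1 library left out. The difference between lines was called at 0 ends, at 1 with DESeq2 and at 0 to 2 with 1 library left out. Ends called both with the block and without it, with the other scaling, with DESeq2 or with 1 library left out had the same direction in each of these settings; direction was not compared over all ends under the others. The sum over a gene's ends and its alternatives were not run, for want of an annotation. The 38 named peaks gave 541 values under these alternatives, of which 429 stayed on their side of the threshold, 109 no longer passed, 3 newly passed and 0 reversed; 34 of those lost came with unlisted ends taken as 0 above a mean of 5. The shallowest library, DMSO 3, alone lacked 12186 ends, which were not tested; the part of its depth in this was not tested.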
